A study of Mus musculus with 3 samples.

Results

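The Traf adaptors and the proteins that edit ubiquitin chains around them were followed through 10 genes: Tnfaip3, Tnip1, Tnip2, Cyld, Traf1, Traf2, Traf3, Traf5, Traf6 and Tank. The genes were chosen by name. Each was read from the probe sets that the platform annotation gives to that gene alone, which gave 20 probe sets for 9 of the 10 genes, out of 34945 such probe sets for 18193 genes. No probe set is listed for Traf3 alone, so Traf3 was not analysed here. The cells were mouse dendritic cells made in culture (BMDCs): bone marrow was kept for 10 days with 10 ng/ml of GM-CSF, which drives it towards cells that present antigen. One culture received 10 ng/ml lipopolysaccharide (LPS) with 100 µM 8-Br-cAMP for 3 h, another received 10 ng/ml LPS alone for 3 h, and the last was unstimulated. LPS comes from the bacterial outer membrane and is bound by the receptor Tlr4. The brominated compound 8-Br-cAMP enters cells and acts as cyclic AMP does. There was 1 Affymetrix mouse expression array per condition. The differences below therefore have no replicate check, and no test was possible. None of the arrays had 8-Br-cAMP without LPS. The labels do not state the mouse strain, age or sex.

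Traf proteins are adaptors that act downstream of activated Toll-like and tumour necrosis factor (TNF) receptors. Several of them are ubiquitin ligases, whose chains recruit the kinases that release the transcription factor NF-kB. Tnfaip3, which edits and removes ubiquitin, and the deubiquitinase Cyld take those chains apart again, and the binding proteins Tnip1 and Tnip2 help to restrain the pathway. Tnfaip3, Tnip1 and Traf1 are known targets of NF-kB themselves, which closes a feedback loop. Tank binds Traf proteins and the kinases Tbk1 and Ikbke, which activate interferon regulatory factors.

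Promoter windows of Tnfaip3, Tnip1 and Tank are shown because the deposited values give a level of RNA only. Each window printed holds an NF-kB match, while Traf1, also at least 2-fold higher with LPS, had none. Any link between these letters and the signals was not tested. The windows are RefSeq sequences on the mouse build GRCm38.p6, running from 250 bases before the annotated start to 50 bases from it onwards, and all 10 genes had at least 1 window. Capitals mark matches to the 10-base NF-kB consensus and to TGACG, the half-site of the cAMP response element, on either strand. The windows lie on the minus strand at chr10:19015361-19015660 for Tnfaip3, on the minus strand at chr11:54962891-54963190 for Tnip1 and on the plus strand at chr2:61592847-61593146 for Tank.
Tnfaip3: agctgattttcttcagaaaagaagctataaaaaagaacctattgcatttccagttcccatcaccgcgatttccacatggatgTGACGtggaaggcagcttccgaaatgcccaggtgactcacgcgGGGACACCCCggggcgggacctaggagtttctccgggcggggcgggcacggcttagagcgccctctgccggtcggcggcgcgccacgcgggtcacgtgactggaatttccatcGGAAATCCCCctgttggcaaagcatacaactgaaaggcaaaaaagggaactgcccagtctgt
Tnip1: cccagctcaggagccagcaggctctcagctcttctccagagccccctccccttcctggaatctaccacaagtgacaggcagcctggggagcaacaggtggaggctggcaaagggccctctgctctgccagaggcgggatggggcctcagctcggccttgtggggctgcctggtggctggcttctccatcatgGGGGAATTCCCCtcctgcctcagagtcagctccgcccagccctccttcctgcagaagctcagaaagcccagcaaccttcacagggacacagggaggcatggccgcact
Tank: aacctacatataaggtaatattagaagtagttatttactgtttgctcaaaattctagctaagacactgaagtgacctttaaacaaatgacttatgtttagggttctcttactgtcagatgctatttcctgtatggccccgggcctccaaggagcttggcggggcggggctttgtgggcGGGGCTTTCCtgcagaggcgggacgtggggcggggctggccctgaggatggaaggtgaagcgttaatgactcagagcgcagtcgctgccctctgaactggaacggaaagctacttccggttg
In the Tnfaip3 window GGAAATCCCC lies at bases -12 to -3 and GGGACACCCC at bases -125 to -116, counted from 0 at the start, and a single TGACG lies at bases -168 to -164. The window of the other annotated Tnfaip3 start held neither motif. In the Tnip1 window the overlapping matches form 1 block, GGGGAATTCCCC, between bases -58 and -47. Tank has GGGGCTTTCC at bases -72 to -63 of the window shown and GGAAGTCCCC in windows of another annotated start. An NF-kB match was present in the windows of 5 of the 10 genes, the others being Cyld (GGAAAGTCCC) and Traf3 (GGGGATTTCC). Of all 27025 genes with windows of this length, 9.55% had such a match. TGACG was present for 3 of the 10 genes, Tnfaip3, Traf2 and Traf5, against 23% of all genes, and the full element TGACGTCA for 0 of 10 against 2.03%. Traf1, Traf2, Traf5, Traf6 and Tnip2 had no NF-kB match in these windows. A match is a string of letters, not a shown binding site.

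The LPS+8-Br-cAMP array was dimmer than the others, with a deposited median signal of 19.8, against 33.5 on the LPS array and 42.6 on the unstimulated array. All signals below were therefore scaled to one trimmed mean, and a single floor was set at a scaled signal of 32.5. Of the dendritic cell markers 10 of 10 were above the floor on every array, with summed scaled signals of 44310 with LPS+8-Br-cAMP, 33030 with LPS and 26660 unstimulated. So were 6 of 6 macrophage markers, at 34820, 27170 and 19010. Cd14 carried that order: the other 5 summed to 14060, 16230 and 14790, and Mertk (-1.65), Adgre1 (-0.84) and Cd68 (-0.77) were lower on the log2 scale with LPS+8-Br-cAMP than with LPS. The neutrophil markers, 8 of 9 with a probe set and none of those under the floor, had summed scaled signals of 15410 with LPS+8-Br-cAMP, 35340 with LPS and 33750 unstimulated. The B and plasma cell markers, 6 of 7 with a probe set, had summed signals of 210.5, 1548 and 1894 in the same order. Igha and Jchain made up most of this on the LPS and unstimulated arrays, and the other 4 summed to 130, 138 and 274. Cd79a, Ms4a1 and Jchain were under the floor on the LPS+8-Br-cAMP array only, Pax5 was above it only there, and Cd79b was above it on every array. Eosinophil markers, 3 of 4 with a probe set, summed to 491, 1405 and 1319, and mast cell and basophil markers, 4 of 4, to 234, 344 and 413. Within these lists the eosinophil marker Siglecf differed little, at 56.1, 53.7 and 58.35. The mast cell marker Kit ran against its sum, at 140.5, 88.0 and 55.9, and Mcpt4 was under the floor on all 3 arrays. Of 5 T and NK cell markers with a probe set, Cd3e, Cd3g and Cd4 were under the floor on all 3 arrays, and the list summed to 103, 115 and 169. Xist, which marks female cells, had a scaled signal of 1716 with LPS+8-Br-cAMP and lay under the floor on the other arrays, while the Y-linked Eif2s3y had 1.24, 272 and 352. The LPS+8-Br-cAMP culture thus differed from the others in these transcripts as well as in treatment, and their part in the differences below was not tested. In a whole culture, fewer cells of a type and less RNA per cell cannot be told apart.

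**Figure D1:**
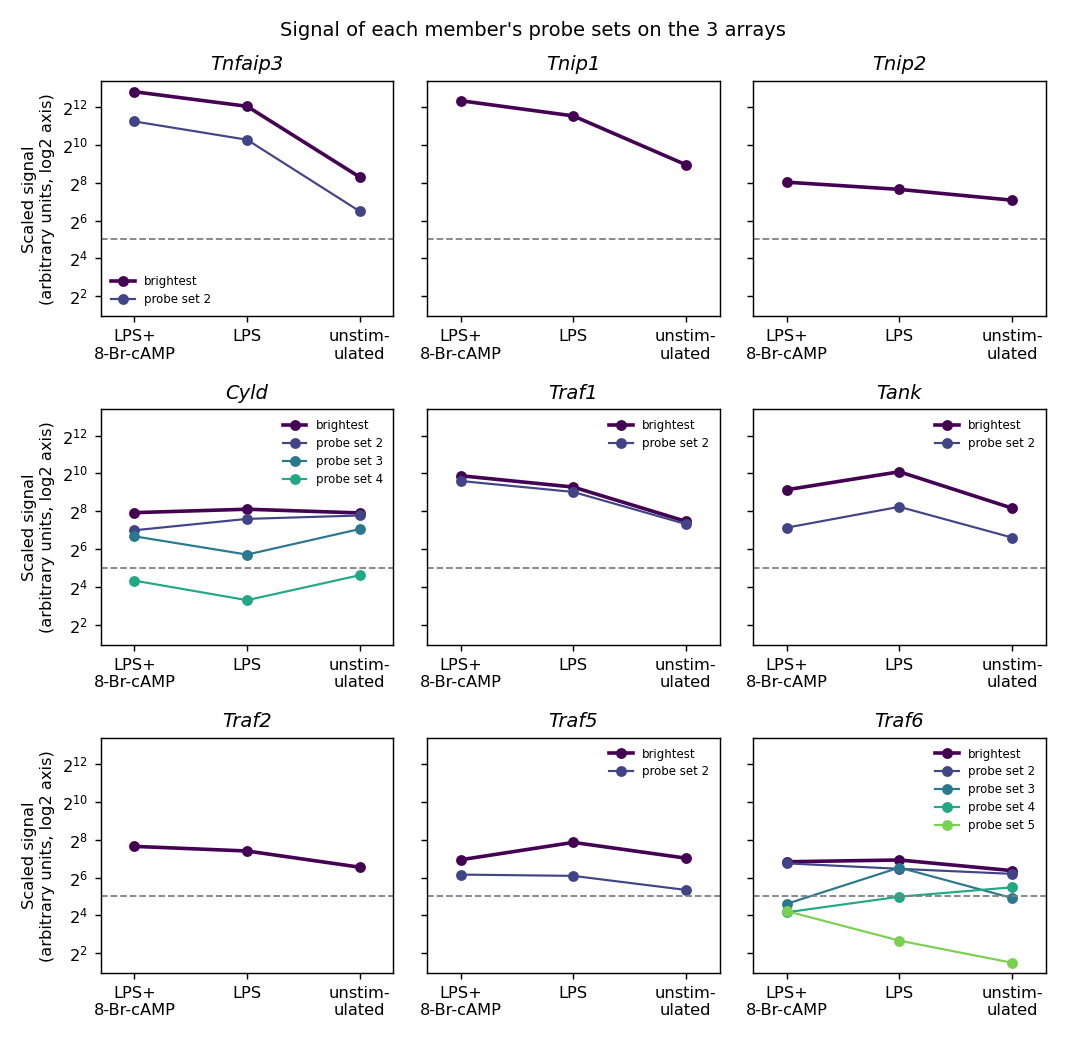
Scaled signal (log2 axis, arbitrary units) of every probe set of the 9 measured members on the LPS+8-Br-cAMP, LPS and unstimulated arrays. The thick line is the brightest probe set, the dashed line the floor of 32.5, and each point is 1 array. Tnfaip3, Tnip1 and Traf1 step down from left to right, while both Tank probe sets peak on the LPS array.

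With LPS, 4 of the 9 measured members were at least 2-fold higher than in unstimulated cells and 0 were lower by that much. Of 12283 genes measured on these arrays, 6.64% were higher by 2-fold or more and 13% lower. The 4 were the restraining genes Tnfaip3 and Tnip1 and the adaptors Tank and Traf1. The median log2 difference of the members was 0.85, and that of all measured genes was -0.21. Each member is represented here by the brightest of its probe sets, judged by the mean over the arrays. The scatter of these arrays was described by pairs of probe sets of 1 gene, whose differences gave an error of 1 probe set of 0.45 on the log2 scale for LPS against unstimulated, 0.48 for LPS+8-Br-cAMP against LPS and 0.57 for LPS+8-Br-cAMP against unstimulated. This is not the spread between cultures.

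Tnfaip3, the ubiquitin-editing enzyme, had the largest difference of the members. Its probe set 1433699_at read a scaled signal of 7194 with LPS+8-Br-cAMP, 4219 with LPS and 315 in unstimulated cells. Its second probe set, 1450829_at, read 2422, 1239 and 90.0 in the same order. Both LPS-treated arrays lay far above the unstimulated one by either probe set. The LPS difference was 3.74 on the log2 scale, a 13.4-fold higher signal, and 3.78 by the second probe set. It ranked 67 from the highest of the 12283 measured genes.

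Tnip1, which binds ubiquitin chains and Tnfaip3, went the same way from a single probe set. It read 5178 with LPS+8-Br-cAMP, 2968 with LPS and 496 unstimulated, and was 5.98-fold higher with LPS than without it. Tnip2, its relative, differed far less, with 262, 201 and 135 in the same order. Its LPS difference was 0.57, little more than the error of 1 probe set.

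Traf1, an adaptor without a ligase domain that binds Traf2, had 2 probe sets of near-equal signal. The brighter read 941 with LPS+8-Br-cAMP, 621 with LPS and 177 unstimulated, and the other 776, 519 and 160. They gave LPS differences of 1.81 and 1.70. Traf1 was thus 3.51-fold higher with LPS by the brighter probe set.

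Tank, unlike the other members past 2-fold, had its highest signal on the LPS array. Its brighter probe set read 563 with LPS+8-Br-cAMP, 1087 with LPS and 287 unstimulated, and the dimmer 140, 301 and 97.6. The LPS+8-Br-cAMP array lay between the other arrays by both probe sets. The differences of LPS against unstimulated were 1.92 and 1.62.

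The RING-domain members Traf2, Traf5 and Traf6 were between 0.56 and 0.85 higher with LPS on the log2 scale, under 2-fold in each case. Traf2, which joins TNF receptors to downstream ligases and kinases, read 200, 169 and 93.5 with LPS+8-Br-cAMP, with LPS and unstimulated. Traf2 and Traf5 passed 2-fold with LPS under quantile normalization and cyclic loess, at up to 1.07 and 1.04. Traf6, the ligase that serves Toll-like and interleukin-1 receptors, was dim, with 114, 122 and 82.4 by its brightest probe set. Its LPS difference was 0.56, against 0.27 by the second probe set, and the remaining Traf6 probe sets were each under the floor on at least 2 arrays.

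Cyld, the deubiquitinase that removes linear and some lysine-linked chains, had probe sets that disagreed. The brightest read 243 with LPS+8-Br-cAMP, 276 with LPS and 241 unstimulated, a LPS difference of 0.20. The second read 127, 193 and 219 and gave -0.18, and another, with 102, 52.3 and 133, gave -1.35. No direction is given for Cyld for that reason, and across the other settings its LPS difference ran from -0.33 to 0.32. The fourth probe set was under the floor on all 3 arrays.

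**Figure D2:**
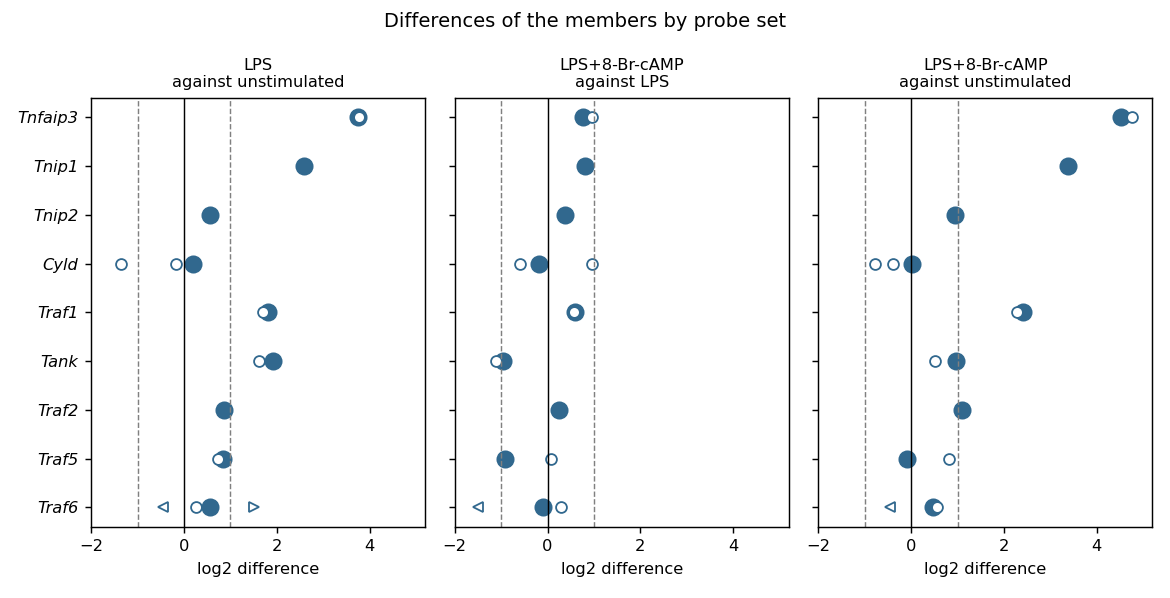
log2 differences of the members in the 3 comparisons. Large filled points are the brightest probe set, small open points the other probe sets, and triangles bounds against the floor; dashed lines mark 2-fold. Tnfaip3, Tnip1, Traf1 and Tank lie beyond 2-fold with LPS, and the brightest probe sets of all members lie within 2-fold in LPS+8-Br-cAMP against LPS.

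The LPS+8-Br-cAMP culture was then set against the LPS culture, from which it differed in the transcripts named above as well as in treatment. The part of 8-Br-cAMP in any difference cannot be told apart from that of the culture. Of the 9 members, 0 passed 2-fold in either direction by the brightest probe set, where 6.49% of 12572 measured genes were higher by 2-fold or more and 5.81% lower. Over the members the log2 differences ran from -0.95 to 0.80 with a median of 0.24, and the median of all measured genes was 0.05. Among genes outside the set, Crem, known as a gene induced by cyclic AMP, was 17.1-fold higher with LPS+8-Br-cAMP than with LPS, and Tnf was 18.4-fold lower. By their brightest probe sets all 9 members differed by less than 2-fold, as did most measured genes.

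Tnip1, Tnfaip3 and Traf1 were the highest of the members in this comparison, at 0.80, 0.77 and 0.60 on the log2 scale. The second probe sets gave 0.97 for Tnfaip3 and 0.58 for Traf1. By the brightest probe sets these differences were 1.25 to 1.68 times the error of 1 probe set. Their sign depended on the scaling for the dimmer array, since the signals as deposited gave -0.0063, -0.039 and -0.21 for Tnip1, Tnfaip3 and Traf1. As deposited, the second Tnfaip3 probe set read 1487 with LPS+8-Br-cAMP against 1333 with LPS, and that of Traf1 476 against 558. Those deposited signals also put the median of all measured genes at -0.65. Relative to the median of all genes, Tnfaip3 lay 0.48 to 0.84 higher, Tnip1 0.53 to 0.78 higher and Traf1 0.44 to 0.58 higher in every setting tried.

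Tank and Traf5 were the lowest members, at -0.95 and -0.92. Tank was lower by both probe sets, 1.93-fold by the brighter and 2.15-fold by the dimmer, so the 2-fold line fell between them. It stayed below LPS in all 10 settings, from -1.76 to -0.87, and 0.92 to 1.14 below the median of all genes. Traf5, an adaptor of TNF receptor family members, rested on less. Its brighter probe set read 123 with LPS+8-Br-cAMP, 232 with LPS and 130 unstimulated, but its second, 1447682_x_at, read 71.3, 68.0 and 40.6 and gave 0.07. A name ending in _x_at marks a probe set whose probes may also match other transcripts.

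By their brightest probe sets the remaining members differed by less than the error of 1 probe set in this comparison. Tnip2 was at 0.38, Traf2 at 0.24, Traf6 at -0.09 and Cyld at -0.18. The other Cyld probe sets above the floor gave -0.60 and 0.97, in opposite directions. A dimmer Traf6 probe set, 1421377_at, read 24.4 with LPS+8-Br-cAMP, 92.1 with LPS and 30.2 unstimulated, at least 2.83-fold lower with LPS+8-Br-cAMP than with LPS. The brighter Traf6 probe sets did not show this pattern, at -0.09 and 0.29.

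**Figure D3:**
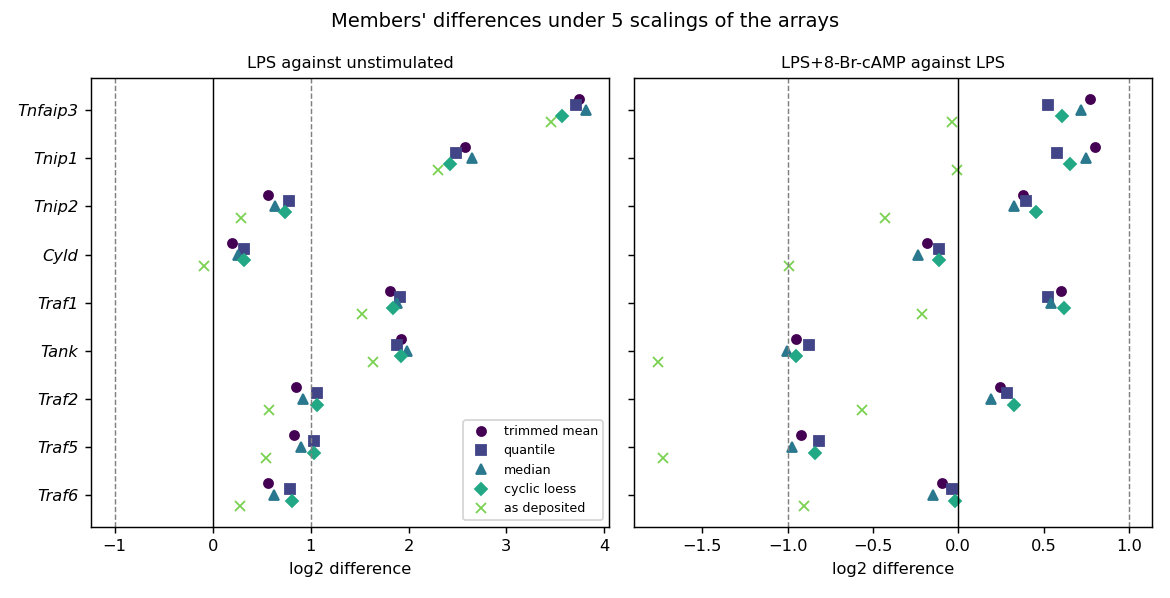
log2 differences of the members' brightest probe sets under 5 ways of scaling the arrays. At left is LPS against unstimulated, at right LPS+8-Br-cAMP against LPS, and dashed lines mark 2-fold. With the signals as deposited every member shifts to the left at right, Tnfaip3 to -0.039, while Tank, Traf5, Traf6 and Cyld are below 0 under all 5. Other probe sets of Traf5, Traf6 and Cyld, not drawn here, did not all share that sign.

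Against unstimulated cells, LPS+8-Br-cAMP left 4 of 9 members at least 2-fold higher and 0 lower by that much. Of 12793 measured genes, 9.36% were higher by 2-fold or more and 15.8% lower. This comparison shares an array with each of the others, so its values only complete the picture. Tnfaip3 was 22.8-fold higher, Tnip1 10.4-fold, Traf1 5.32-fold and Traf2 2.14-fold. Traf2 fell short of 2-fold in 3 of 10 settings, at log2 differences of 0.0066 with the signals as deposited, 0.88 with a floor at the 75th percentile and 0.89 with a pseudocount. Tank was 1.96-fold higher, just under the threshold, and Tnip2 1.93-fold. By their brightest probe sets Traf6 (0.47), Cyld (0.015) and Traf5 (-0.087) differed by less than the error of 1 probe set on the log2 scale. Other probe sets gave -0.78 for Cyld and 0.81 for Traf5.

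The order of the arrays divided the members into groups. Tnfaip3, Tnip1, Traf1, Traf2 and Tnip2 were highest with LPS+8-Br-cAMP, next with LPS and lowest unstimulated by their brightest probe sets. For Traf2 and Tnip2 the step between LPS+8-Br-cAMP and LPS was within the error of 1 probe set. By their brightest probe sets Tank and Traf5 were highest with LPS, Tank with LPS+8-Br-cAMP between the other arrays and Traf5 with LPS+8-Br-cAMP next to unstimulated cells. The second Traf5 probe set did not share this order, with 71.3 with LPS+8-Br-cAMP, 68.0 with LPS and 40.6 unstimulated. The brightest probe sets of Traf6 and Cyld did not separate LPS+8-Br-cAMP from LPS beyond the error of 1 probe set, while dimmer ones of both genes did.

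**Figure D4:**
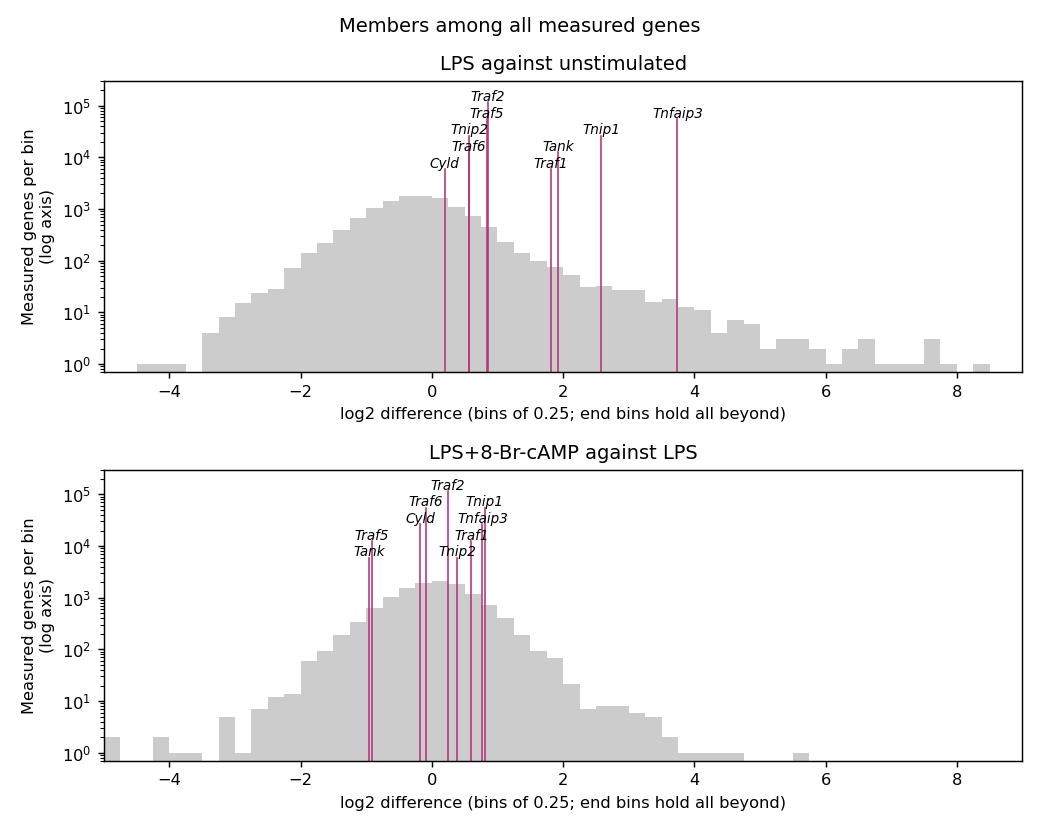
Number of measured genes per bin of 0.25 log2 units (grey bars, log axis) for LPS against unstimulated (top) and LPS+8-Br-cAMP against LPS (bottom), with the members as lines. With LPS, Tnfaip3 at 3.74 ranks 67 from the highest of 12283 genes; with 8-Br-cAMP added, all members lie between -0.95 and 0.80.

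Genes with the most similar pattern over the 3 conditions were found by the distance between pairs of log2 differences, LPS against unstimulated and LPS+8-Br-cAMP against LPS, among 9077 other genes above the floor on all arrays. Nearest to Tnfaip3 were Car13, a carbonic anhydrase, Il1rn, the interleukin-1 receptor antagonist, Ptges, the inducible prostaglandin E synthase, Ccrl2, a chemerin-binding receptor, and Slc2a6, a sugar transporter. Their distances were 0.29 to 0.47, and Il1rn read 13160, 6771 and 633 with LPS+8-Br-cAMP, with LPS and unstimulated. Only 7 genes lay within 0.5 of Tnfaip3. Traf1 had 54 such genes, the nearest being Camkk2, AW112010, N4bp1, Acpp and Batf at distances of 0.014 to 0.16. With 3 conditions a small distance describes these arrays only.

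Other genes of the pathway were taken from lists by function, and the members were set beside them. Among NF-kB subunits and IkB proteins, 8 of 9 measured genes passed 2-fold upwards with LPS (median 1.81), where 6.64% of all measured genes did. They included Nfkbiz, a nuclear cofactor (4.05), Nfkb2, a subunit (2.97, but 0.69 by its second probe set), and the inhibitors Nfkbie (2.61) and Nfkbib (1.99). The count was 4 to 8 over all settings. Receptors that recruit Traf proteins had 2 of 11 higher and 1 lower, where 6.64% of all measured genes were higher and 13% lower. The median of the receptors was -0.095, and ran from -0.38 to 0.20 in other settings. Cd40, which signals through Traf proteins to mature dendritic cells, was 38.5-fold higher, with a scaled signal of 2613 with LPS against 67.9 unstimulated, and Tnfrsf1b, a TNF receptor, was 2.85-fold higher. The TNF receptor family member Tnfrsf13c was at least 2.18-fold lower, being under the floor with LPS.

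Ligases and scaffolds had 4 of 19 measured genes past 2-fold upwards with LPS and 3 downwards, with a median of 0.055 that ran from -0.23 to 0.39 in other settings. The shares of all measured genes, for this list and the next ones, were 6.64% higher and 13% lower. Peli1, a ligase of Toll-like receptor signalling, was 11.9-fold higher by its brightest probe set, and at 2.88, 3.18 and -0.64 by the others. Rnf31, the catalytic subunit that makes linear ubiquitin chains, was 4.75-fold higher. The ligase Peli2 and the Traf3-binding protein Traf3ip3 were both at -1.88. Other Peli2 probe sets gave -0.79 and -1.03. Traf3ip3 read 38.5 with LPS, close to the floor, and ran from -2.12 to -0.38 over the settings. Deubiquitinases and ubiquitin-binding proteins had 3 of 13 higher and 0 lower (median 0.17, from -0.16 to 0.24). They were Usp18, which removes the ubiquitin-like protein Isg15, 48.8-fold higher, Usp25 (1.85) and N4bp1 (1.68). Kinases and kinase adaptors had 3 of 15 higher and 1 lower (median 0.55, from -0.044 to 0.67), with Ikbke at 1.98, Map3k8 at 1.81, the Tbk1 adaptor Azi2 at 1.62 and Map3k14 at -1.06. Azi2 had a second probe set at -0.01, and Map3k14 one at -0.94.

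In LPS+8-Br-cAMP against LPS, 1 gene of these lists passed 2-fold, the NF-kB subunit Rel. It was 2.09-fold higher, with a scaled signal of 423 with LPS+8-Br-cAMP against 202 with LPS. Its log2 difference was 0.26 to 1.14 over the settings. By the brightest probe sets no other measured gene passed 2-fold of 19 ligases and scaffolds, 13 deubiquitinases, 15 kinases, 11 receptors and 8 further NF-kB genes. Of all measured genes, 6.49% were higher by 2-fold or more and 5.81% lower. Dimmer probe sets of some list genes passed 2-fold in either direction, such as Otub1 at 1.75 and Usp25 at -1.17. The medians of the lists were -0.064 for ligases and scaffolds, 0.23 for deubiquitinases, -0.079 for kinases, -0.10 for receptors and 0.021 for the NF-kB list. The median of the kinases stayed below 0 in the other settings, and the other medians took both signs, the lowest values being those of the signals as deposited. With those signals 6 ligases and scaffolds, 3 deubiquitinases, 7 kinases, 2 receptors and 0 NF-kB genes passed 2-fold downwards. Of the 20 list genes at least 2-fold higher with LPS, 10 were above 0 with 8-Br-cAMP added and 10 below it. Nfkbia was at 0.68, N4bp1 at 0.60 and Usp18 at 0.52, named after their values were seen, but at -0.13, -0.21 and -0.29 with the signals as deposited. The other Nfkbia probe sets ran from 0.06 to 0.57, and those of N4bp1 gave 0.79 and -0.39, in opposite directions. Cd40 was at -0.91, and at -1.44 and -1.39 by its other probe sets. Peli1 was at -0.76, and at -0.96, -1.98 and -0.04 by dimmer probe sets. Ikbke, a kinase that Tank binds, was at -0.76 beside the -0.95 of Tank. Tbk1, the other such kinase, named after its values were seen, was at -0.66.

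**Figure D5:**
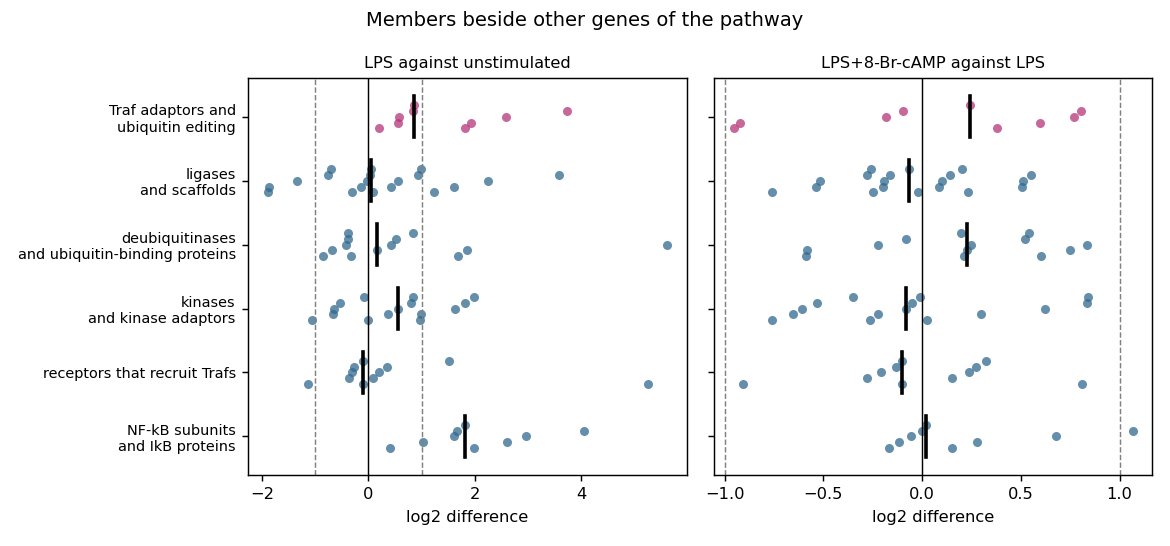
log2 differences of the 9 measured members (top row, magenta) and of 5 lists of pathway genes (blue), for LPS against unstimulated (left) and LPS+8-Br-cAMP against LPS (right); the axes differ in range. Each point is a gene, black bars are medians and dashed lines mark 2-fold; the NF-kB list has the highest median with LPS, 1.81, and Rel is the only gene beyond 2-fold at right.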

How the data were processed

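Total RNA of 3 BMDC cultures was hybridised to 3 arrays, 1 for each condition, so their number limits the precision. The authors deposited linear signal intensities, 1 for each probe set, from the MAS5 algorithm per the submitters' processing notes. Its version, target and settings are not stated, and no detection calls were used. Of 45101 probe sets, 64 controls were left out. GEO's platform annotation gave 1 gene for 34945, several for 932 and did not list 9160; 99.4% of the first had a RefSeq gene identifier, which changed 0 symbols.

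Each array was multiplied to the average of the 2% trimmed means, by 1.63 (LPS+8-Br-cAMP), 0.929 (LPS) and 0.763 (unstimulated). A floor was set at the highest array median, 32.5, before taking log2. A gene counted as measured when above this floor on either array compared; a difference against the floor is a lower bound. With 1 array a condition no test, p-value or SE was computed. The steps were run on simulated data, where planted differences were read back in LPS against unstimulated only. The LPS+8-Br-cAMP comparisons and differences between cultures were not tested that way. Members and lists were chosen with earlier results of these data known. Named genes were all members, up to 4 genes of each list past 2-fold with the largest differences, the 5 genes nearest to Tnfaip3 and to Traf1, and Crem and Tnf. The listed genes Peli3, Ube2l3, Tnip3, Optn, Chuk, Ripk1, Ripk2 and Nfkb1 had no probe set of their own here. Alternatives were other scalings, floors, a pseudocount, other choices of probe set and thresholds of 1.5-fold and 3-fold. Python 3.11.15, pandas 2.3.3 and, for cyclic loess, limma 3.58.1 were used.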

Additional observations from a re-analysis of the deposited data

How the results depend on the processing

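The counts of members at least 2-fold higher with LPS (4) and with LPS+8-Br-cAMP against unstimulated (4) stayed within 3 to 6 under every alternative. The count lower with LPS was 0 throughout. In LPS+8-Br-cAMP against LPS the count of lower members, 0, became 1 with median scaling, 1 with the mean over probe sets, 1 with only probe sets ending in a digit and _at, 2 with signals as deposited and 2 at a threshold of 1.5-fold, and the count of higher members, 0, became 3 at 1.5-fold. Tank accounts for the single lower member under median scaling, under the mean over probe sets (-1.03) and under the choice of probe sets (-1.10). Tank (-1.76) and Traf5 (-1.73) passed with signals as deposited. The count lower in LPS+8-Br-cAMP against unstimulated, 0, became 2 with signals as deposited, which keep the dimness of that array. Using the LPS and unstimulated arrays alone, chosen after seeing the data, gave 4 higher and 0 lower. No member past 2-fold changed sign under any alternative. Of 240 differences of single members recomputed, 220 moved by no more than the error of 1 probe set, and 18 of the other 20 were with signals as deposited. Many of the 220 could not move, because these settings read the same bright probe sets. The lower floor changed no member and the higher floor only Traf2 and Traf6. The choice of probe sets ending in a digit and _at changed only Tank and left out Tnip1. No paired analysis was possible because each condition has 1 array.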
